A study of Mus musculus with 16 samples.

Results

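The genes described here are 42 genes of mitosis and chromosome segregation, followed through 16 RNA libraries of mouse tumours grown from MC38 cells, a colon carcinoma line grafted under the skin. They were taken by symbol from the 18480 entries of each library, and all 42 were found and passed the filter of at least 1 FPKM in at least 4 libraries. FPKM counts sequenced fragments relative to transcript length and to library size, so levels can be set side by side between genes. The list was put together with earlier results of these data in view: Mki67, Bub1b, Plk1 and Arhgap19 had been noted in the antibody against control, Smc4, Kif11 and Mki67 in exercise against control, and Mki67 in the combination against the antibody. The differences in those 3 comparisons, and in the interaction built from them, are therefore given as a description. The combination was also compared with control and with exercise, whose libraries those comparisons used, so these values are not independent of that choice.

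The 4 groups were control, exercise, anti-PDL1 antibody (called anti-PD-L1 here), and exercise with the antibody, called the combination, with 4 libraries each. PD-1 blockade is named in the title of the series, and PD-L1 in its sample labels. The sources used here do not give mouse strain, age, antibody dose or exercise schedule. Whether each library is a different mouse is not stated, so a p-value reflects the spread among these libraries alone, and that spread may be technical.

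In mitosis, cyclin B with the kinase CDK1 drives a cell into division, condensin packs the chromosomes, and kinetochores tie them to the spindle. The spindle checkpoint then holds back the anaphase-promoting complex until every chromosome is attached. After that, separase releases the sister chromatids from each other and a contractile ring divides the cell. Many of these genes are transcribed late in the cell cycle, so in a tumour their RNA may depend on how many cells divide. In bulk tissue, fewer dividing cells and less RNA per dividing cell cannot be told apart.

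The transcription of many such genes is tied to promoter elements that the list did not use. The cell cycle genes homology region, bound by the MuvB complexes, is read here as TTTGAA or TTCGAA, and the CCAAT box is bound by NF-Y. Both were searched on both strands, overlapping matches included, in the 250 bases before each start in RefSeq promoters of GRCm38.p6, where 36 of the 42 genes had an entry, with 38 windows. CCAAT stood in 31 of the 38 windows (81.6%), against 35.4% of 11895 windows of the other tested genes and 33.8% of 32851 windows in the table. At least 2 matches to CCAAT stood in 18 windows (47.4%), against 12.8% for the other tested genes. TTTGAA or TTCGAA stood in 18 windows (47.4%), against 12.1%, and all of these 18 also held CCAAT, which was so for 4.66% of windows of the other tested genes. A match describes the letters and is not a binding site. The 4 promoters below held the most matches among those with both motifs, leaving out windows that reach more than 30 bases into an annotated transcript, and show how closely the motifs can lie. Ccnb2 held as many matches as Arhgap19, which is printed as the first by alphabet. They are printed 5′ to 3′ on the strand of the gene, with the matches in capitals:
Top2a, chr11:99024190-99024439, minus strand: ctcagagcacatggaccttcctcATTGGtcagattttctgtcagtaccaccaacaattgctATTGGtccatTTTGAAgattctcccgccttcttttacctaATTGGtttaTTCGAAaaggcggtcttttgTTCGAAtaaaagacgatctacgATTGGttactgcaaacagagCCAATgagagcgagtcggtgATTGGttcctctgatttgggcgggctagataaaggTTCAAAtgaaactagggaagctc
Ube2c, chr2:164769679-164769928, plus strand: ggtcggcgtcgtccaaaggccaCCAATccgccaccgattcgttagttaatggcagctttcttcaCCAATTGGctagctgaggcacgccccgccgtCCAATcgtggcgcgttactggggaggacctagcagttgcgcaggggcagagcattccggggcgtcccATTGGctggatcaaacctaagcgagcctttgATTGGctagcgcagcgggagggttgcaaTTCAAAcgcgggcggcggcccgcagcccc
Cdk1, chr10:69352913-69353162, minus strand: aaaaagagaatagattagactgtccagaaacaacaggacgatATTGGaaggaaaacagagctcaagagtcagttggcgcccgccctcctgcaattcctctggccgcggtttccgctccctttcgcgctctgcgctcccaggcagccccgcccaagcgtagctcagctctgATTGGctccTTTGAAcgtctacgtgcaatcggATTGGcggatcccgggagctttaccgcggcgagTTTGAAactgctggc
Arhgap19, chr19:41802085-41802334, minus strand: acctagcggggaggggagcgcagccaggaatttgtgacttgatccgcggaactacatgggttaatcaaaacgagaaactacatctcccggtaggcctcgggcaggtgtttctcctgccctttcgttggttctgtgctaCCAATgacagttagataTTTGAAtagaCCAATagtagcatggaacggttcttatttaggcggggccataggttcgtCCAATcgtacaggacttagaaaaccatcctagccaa

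Top2a held 6 matches to CCAAT and 4 to the other motif, and Cdk1 held 3 and 2. Ube2c held 6 and 1, and Arhgap19 3 and 1. No match to either motif was found in the windows of Anln, Birc5, Mad2l1, Ncaph, Ndc80, Nuf2 and Nusap1, which says only that these letters are not in those 250 bases.

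Levels differed widely between the members. Ube2c, the ubiquitin-conjugating enzyme of the anaphase-promoting complex, had the highest mean over the 16 libraries at 165 FPKM, followed by Top2a at 97.5 and Ccna2 at 80.2 FPKM. Arhgap19, a GTPase-activating protein for RhoA, had the lowest at 5.24 FPKM, below Mastl at 7.80 and Depdc1a at 8.55 FPKM. The libraries also differed within groups, as the heat map of all members shows. Exercise 1 was the highest exercise library in 42 of 42 members, and it was the highest of its group in 36.5% of all tested genes. In 26 members it lay above all 4 controls, against 19.5% of all tested genes, and in the other 16 within the range of the controls. Control 4 was the lowest control in 41 members, against 25.9% of all tested genes, and control 1 or 2 was the highest control in 41, against 47.5%.

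**Figure D1:**
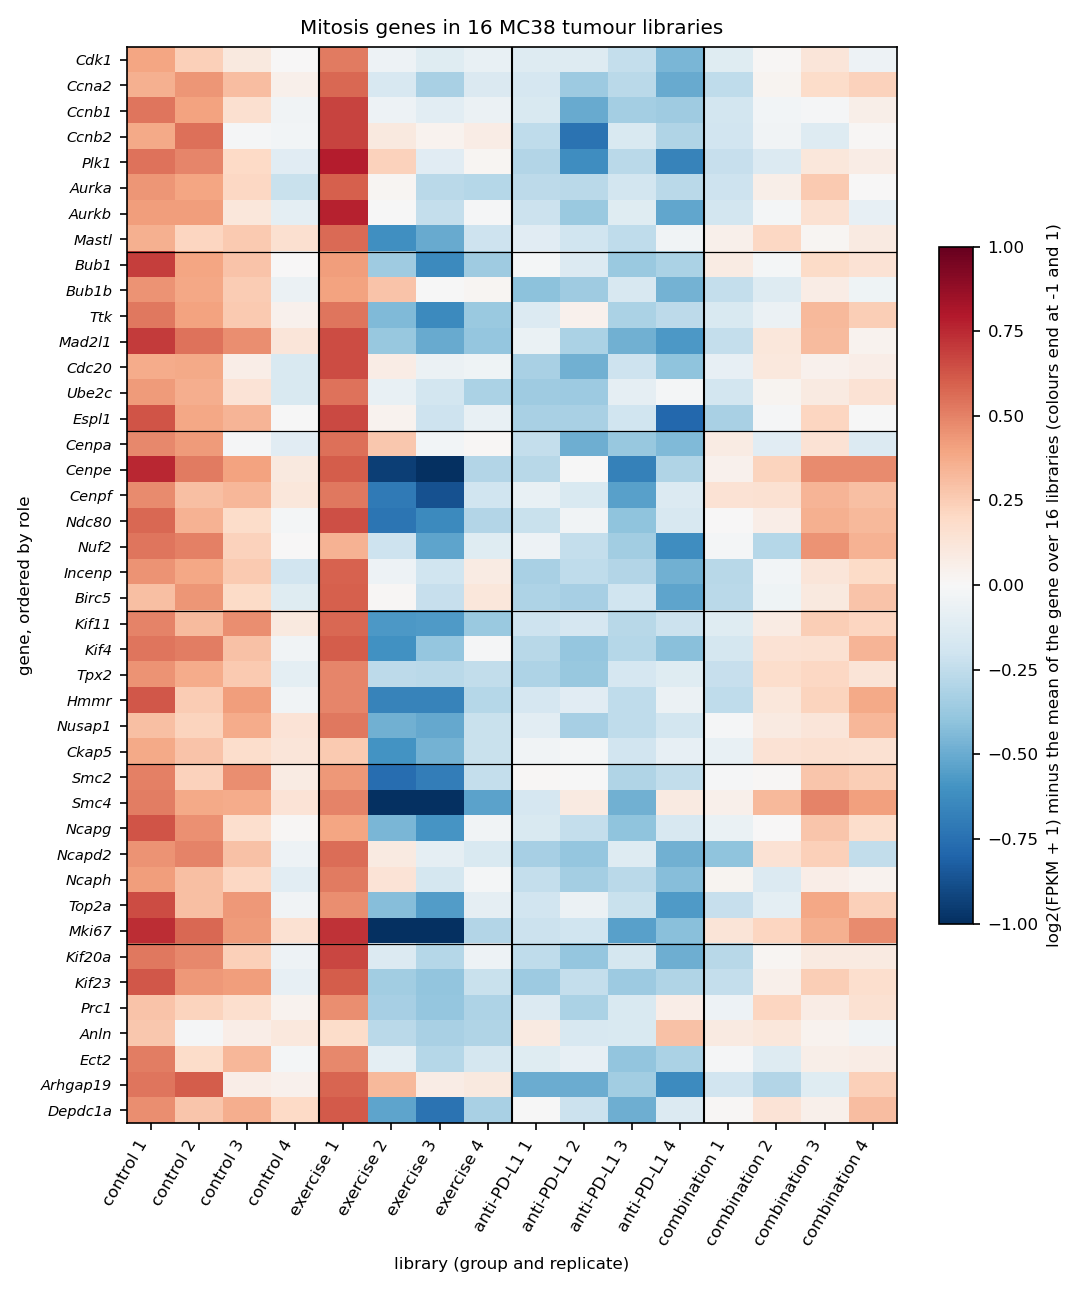
Deviation of log2(FPKM + 1) from the mean of each gene over 16 libraries, with the 42 genes in rows by role and the libraries in columns by group. Exercise 1 and controls 1 and 2 are high in nearly all genes, and the 4 anti-PD-L1 libraries and exercise 2 to 4 are low in most, exercise 3 with the lowest median.

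With the antibody alone, mitosis genes were lower than in control in all 42 cases, as were 57.7% of all tested genes. The median difference was -0.55 on the log2(FPKM + 1) scale, while the median over all 11868 tested genes was -0.04, and differences ranged from -0.82 for Mad2l1 to -0.09 for Anln. In 37 members no antibody library reached the lowest control, which was so for 7.26% of all tested genes. The exceptions were Anln, Ttk, Aurka, Ube2c and Prc1. Because the members were partly chosen from this comparison, nothing is read from these counts.

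Among the genes that drive entry into mitosis, Cdk1, the kinase partner of the mitotic cyclins (chromosome 10, 69335146 to 69352912 in GRCm38.p6), measured 34.6, 31.0, 27.9 and 26.1 FPKM in control 1 to 4 and 23.8, 23.7, 21.9 and 18.7 in the anti-PD-L1 libraries. The groups did not overlap, and the means were 29.9 ± 3.71 and 22.005 ± 2.38 FPKM (SD, n = 4 each). Plk1, a kinase that acts at centrosomes, kinetochores and in cytokinesis (chromosome 7, 122159435 to 122169884), measured 48.1, 46.2, 37.7 and 30.2 FPKM in control and 26.4, 20.8, 27.0 and 20.2 with the antibody. Its log2 difference was -0.74 with a standard error of 0.18. Ccnb1, which encodes cyclin B1, differed by -0.60 and Ccnb2, the second B-type cyclin, by -0.58. Ccna2, whose cyclin A2 acts in S phase and early mitosis (chromosome 3, 36564865 to 36573038), measured 100.7, 107, 97.3 and 81.0 FPKM in control and 69.5, 60.5, 64.9 and 55.1 with the antibody, and its groups were well apart. The Aurora kinases, which act at spindle poles (Aurka) and on chromosomes (Aurkb), differed by -0.45 and -0.52, and Mastl, the kinase that restrains the phosphatase PP2A, by -0.40.

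The genes of the spindle checkpoint and of anaphase had the same median of -0.55. Mad2l1, which encodes the checkpoint protein MAD2 (chromosome 6, 66535221 to 66541107), measured 53.2, 47.6, 45.0 and 35.2 FPKM in control and 30.9, 25.7, 22.8 and 21.4 in anti-PD-L1 tumours, a mean of 45.3 ± 7.53 against 25.2 ± 4.19 FPKM (SD, n = 4 each). Bub1b, which encodes the checkpoint protein BUBR1 (chromosome 2, 118598202 to 118641592), measured 33.8, 32.3, 29.3 and 23.5 FPKM in control and 18.1, 18.9, 21.7 and 17.4 with the antibody. The lowest control library lay above the highest antibody library in both genes. Ube2c measured 218, 208, 178 and 146 FPKM in control and 127, 126, 152 and 159.5 with the antibody, so that control 4 lay below antibody libraries 3 and 4. Cdc20, the activator of the anaphase-promoting complex that the checkpoint holds back, measured 76.5 ± 13.4 and 52.6 ± 4.397 FPKM. Espl1, which encodes separase, measured 17.4 ± 3.25 and 9.96 ± 1.81 FPKM.

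Condensin and chromosome structure genes showed differences from -0.82 to -0.46. Mki67, which encodes the Ki-67 protein that coats mitotic chromosomes (chromosome 7, 135689784 to 135716450), measured 64.7, 57.5, 51.9 and 42.8 FPKM in control and 33.0, 33.3, 26.0 and 28.5 with the antibody. The lowest control library stood well above the highest antibody library. Top2a, the topoisomerase that untangles sister chromatids (chromosome 11, 98992947 to 99024199), measured 149, 117, 128 and 92.4 FPKM in control and 82.8, 90.7, 80.8 and 63.5 with the antibody. Here the gap between both groups was narrow. Smc4, a core subunit of both condensins (chromosome 3, 69004738 to 69034623), measured 90.6, 82.6, 82.4 and 69.7 FPKM in control and 56.2, 67.4, 45.0 and 67.5 with the antibody. Its partner Smc2 differed by -0.46, and the condensin I subunits Ncapg, Ncapd2 and Ncaph by -0.55, -0.63 and -0.52.

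Kinetochore and passenger genes had a median of -0.56 and spindle genes one of -0.48. Cenpe, a kinesin that moves chromosomes to the spindle equator, measured 17.3 ± 3.40 and 9.79 ± 2.01 FPKM in control and anti-PD-L1 tumours (SD, n = 4 each). Cenpa, the histone H3 variant that marks centromeres, measured 50.8 ± 10.6 and 33.2 ± 2.69 FPKM. Birc5, which encodes survivin of the chromosomal passenger complex (chromosome 11, 117849237 to 117855743), measured 83.5, 92.5, 77.5 and 62.3 FPKM in control and 54.4, 53.4, 58.8 and 46.6 with the antibody, without overlap. Ndc80 and Nuf2, partners in the complex that grips microtubules, differed by -0.47 and -0.63. Kif11, the motor that pushes spindle poles apart, measured 34.4, 30.2, 33.5 and 25.8 FPKM in control and 20.7, 21.3, 19.7 and 20.5 with the antibody. The antibody libraries of Kif11 lay close together, while the controls spread over a wider range. Tpx2, which activates Aurora A on the spindle (chromosome 2, 152847964 to 152895321), measured 73.5, 69.3, 64.2 and 49.8 FPKM in control and 42.99, 40.98, 47.4 and 49.1 with the antibody, its lowest control just above its highest antibody library. Ckap5, which speeds microtubule growth, showed the smallest difference among spindle genes at -0.32.

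Cytokinesis genes held both extremes in relative terms. Arhgap19 measured 7.75, 8.16, 5.31 and 5.23 FPKM in control and 3.28, 3.28, 3.75 and 2.91 with the antibody, so its mean FPKM with the antibody was 0.50 times that in control. Anln, which encodes the scaffold of the contractile ring, measured 76.3, 62.7, 66.2 and 67.8 FPKM in control and 67.0, 56.4, 56.7 and 77.3 with the antibody. Its groups overlapped, with the highest library of both groups an anti-PD-L1 one, and its mean ratio was 0.94. Kif23 and Kif20a, kinesins of the central spindle, differed by -0.66 and -0.63, and Prc1, which bundles its microtubules, by -0.31.

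**Figure D2:**
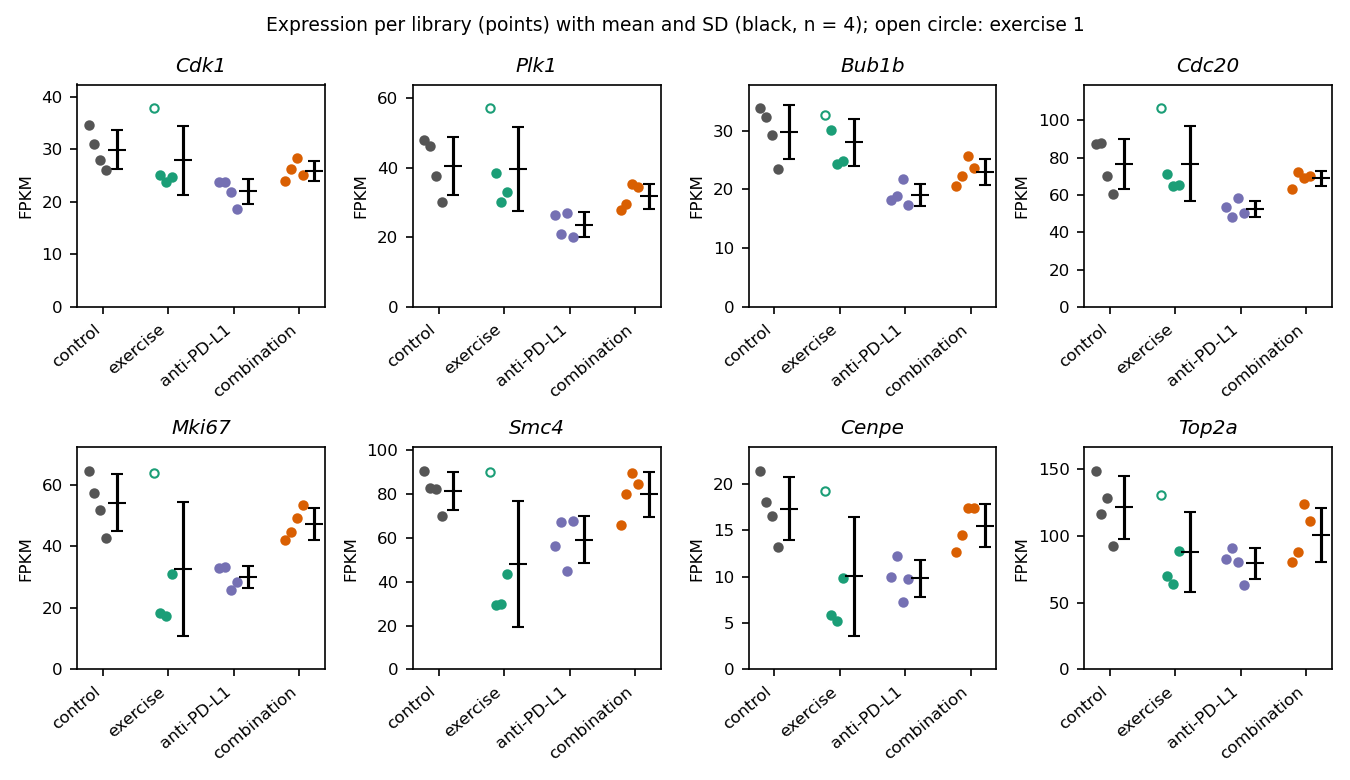
FPKM of 8 members in each library, with one point per library and the mean and SD of each group of 4 in black. The 4 anti-PD-L1 points lie below the 4 control points in all 8 genes, and exercise 1 (open circle) lies apart from exercise 2 to 4, with a wide gap in Mki67, Smc4 and Cenpe and a narrow one in Bub1b.

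In limma with Benjamini-Hochberg adjustment over all genes, 1 of the 42 members, Arhgap19, was past the threshold in this comparison, as were 0.253% of all tested genes. As members were noted in this comparison, this count and those under other settings describe the fit and are no test of the members. Without any one of controls 1, 2 and 3, exercise 2, 3 and 4, and anti-PD-L1 libraries 1, 2 and 4, the count was 0. Without anti-PD-L1 library 3, combination library 1 or combination library 3 it was 2. Over all fits with 1 library left out, between 6 and 768 genes were called. The share of all genes in each of these fits is not given, so nothing is read from a count of 0 or 2. The count of members was 21 without control 4, where 6.47% of all genes were called, and 28 without exercise 1, where 2.67% were. Exercise 1 is in neither group compared here, so leaving it out kept each member difference and changed only the spread used by the fit. With library weights it was 28, with 7.04% of genes called, and 26 with the GC trend of each library removed and exercise 1 left out, with 2.82% of genes called. These weights lower the influence of libraries far from their group. An unadjusted p under 0.05 with a lower level was found for 38 members and 15.7% of all genes. Without controls 1 and 2 together the median difference was -0.38. Markers of other cell types also stood at different levels in these tumours. All 10 macrophage markers were lower with the antibody, against 57.7% of all genes, and 0 were called. An unadjusted p under 0.05 was found for 7 of them, against 15.7% of all genes with lower values. The summed FPKM of the 10 macrophage markers ran from 460.7 to 1889 in control and from 347 to 739.6 in anti-PD-L1 libraries. It ran from 540 to 987 in exercise and from 409 to 1229.6 in combination libraries. That of 9 T and NK cell markers ran from 2.69 to 5.67 in control and from 5.58 to 17.8 with the antibody. The 17.8 was anti-PD-L1 library 1, and libraries 2 to 4 stood at 5.58, 6.54 and 7.04. Of these 9 markers 8 had a mean under 1 FPKM in control and 6 with the antibody, and 2 passed the filter. The 8 fibroblast markers summed to between 682 and 1617 in control and between 763.5 and 1504 with the antibody, and the 8 endothelial markers to between 38.0 and 129.5 and between 32.4 and 52.7. The T and NK cell marker Nkg7, at 1.00 FPKM in control and 4.00 with the antibody, was the only marker called. No marker of these lists was at 0 throughout either group, and their part in the difference of the mitosis genes was not tested. Of 7 epithelial and colon carcinoma markers that were listed, 5 had a mean under 1 FPKM in control and 6 with the antibody, so most of these markers were near 0 in tumours labelled as a carcinoma line. Skeletal muscle markers summed to 302 FPKM in control 2 and to at most 12.6 FPKM in the other 15 libraries.

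With exercise alone the difference from control varied more from member to member. The median difference from control was -0.32, against -0.02 for all tested genes, and 41 of 42 members were below 0, as were 53.8% of all genes. Differences ran from -0.90 for Mki67 and Smc4 to 0.01 for Cenpa, and their SD over the members was 0.25, against 0.14 with the antibody. Exercise 1 lay above control 4 in all 42 members, against 50.2% of all tested genes. In no member, therefore, did all exercise libraries lie below all controls. That pattern of non-overlap with lower values was found for 3.51% of all genes.

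Mki67 measured 63.9, 18.4, 17.4 and 31.1 FPKM in exercise 1 to 4. Smc4 measured 89.8, 29.4, 29.8 and 43.3 FPKM, and Cenpe 19.2, 5.90, 5.18 and 9.79 FPKM. In each of these 3 genes exercise 1 lay within the range of the controls and the other exercise libraries lay below every control, with exercise 2 and 3 lowest of all 16 libraries. Mad2l1 measured 51.2, 24.7, 22.5 and 24.5 FPKM, with the same split between exercise 1 and the rest. Kif11 measured 36.2, 15.8, 15.9 and 18.4 FPKM, with exercise 1 above every control and exercise 2 to 4 below every control. Another set of members showed a different picture. Plk1 measured 57.0, 38.5, 30.2 and 33.2 FPKM, Cdc20 106, 71.0, 64.7 and 65.2 FPKM and Cenpa 64.5, 52.8, 42.7 and 43.9 FPKM. In these genes exercise 1 lay above every control and exercise 2 to 4 lay inside the control range. Bub1b, at 32.7, 30.03, 24.4 and 24.9 FPKM, lay within the control range in all 4 exercise libraries.

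By role, the entry genes had a median difference of -0.13, with Ccnb2 at 0.00 and Mastl lowest at -0.44. Checkpoint and anaphase genes had -0.23 and cytokinesis genes -0.28. Kinetochore and passenger genes had -0.44, spindle genes -0.46 and condensin and chromosome structure genes -0.49. Without exercise 1 the medians were -0.32 for entry, -0.42 for checkpoint and anaphase, -0.46 for cytokinesis, -0.60 for kinetochore and passenger, -0.66 for spindle and -0.70 for condensin genes. Within condensin the subunits differed: Smc4 and Smc2 stood at -0.90 and -0.64 and Ncapg at -0.49, but Ncapd2 and Ncaph, subunits of the same condensin I complex, at -0.20 and -0.09. The checkpoint genes Bub1 and Bub1b, related in sequence, stood at -0.58 and -0.08.

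**Figure D3:**
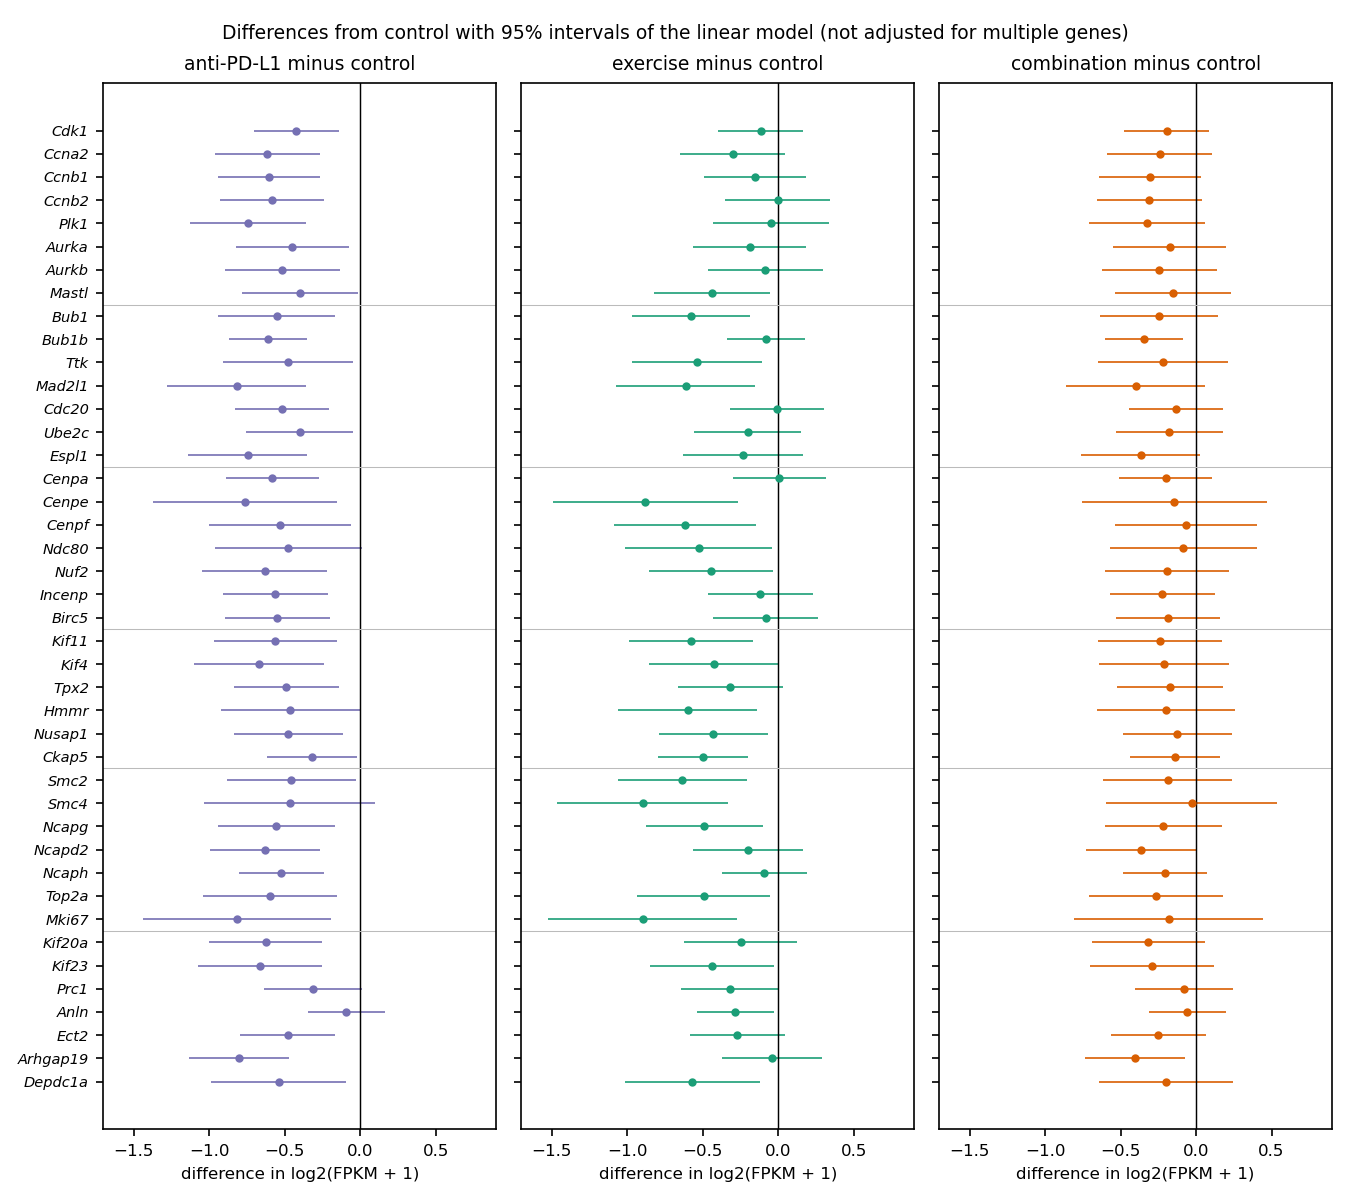
Difference from control in log2(FPKM + 1) for each of the 42 genes, ordered by role, with 95% intervals of the linear model, for the antibody, exercise and the combination. The antibody values cluster around -0.55, the exercise values spread from -0.90 to 0.01, and the combination values lie between -0.41 and -0.03.

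As members were noted in this comparison too, its counts describe the fit and are no test of them. Of the 42 members, 0 were called in limma for exercise against control, as were 0% of all genes, and 20 had an unadjusted p under 0.05 with lower values, against 9.93% of all genes. Without exercise 1 the median was -0.51, and 24 members and 5.15% of all genes were called. The 24 included Mki67 at -1.28, Smc4 at -1.24, Cenpe at -1.23, Cenpf at -0.90, Smc2 at -0.89 and Mad2l1 at -0.88, while Plk1 stood at -0.23, Cdc20 at -0.17, Bub1b at -0.16 and Cenpa at -0.11 without a call. Exercise 2 to 4 all lay below every control in 26 members and in 13.5% of all genes. With library weights 28 members and 19.2% of genes were called. The 8 fibroblast markers summed to 1014, 2074, 1403 and 2006 FPKM in exercise 1 to 4, so exercise 1 was the lowest of its group there, and their part in the difference was not tested. All 10 macrophage markers were lower with exercise than in control, against 53.8% of all genes. Of these 0 were called, and their part was not tested.

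The spread among members in exercise tumours went with the base composition of their transcripts, a property the list did not use. GC content, taken from the GENCODE M21 transcript with the longest coding sequence, ran from 35.3% in Depdc1a to 56.1% over the members, with a median of 45.9%, against a median of 50.6% over 11611 tested genes. Across the 42 genes the difference between exercise and control correlated with GC content at Pearson r = 0.69 and Spearman rho = 0.76, and across the 11611 genes at 0.27 and 0.30. Without exercise 1 the values were 0.66 and 0.74 over the members and 0.27 and 0.28 over all. Genes are not independent replicates, and all share the same 8 libraries, so these values are descriptions. The 14 members with the lowest GC content, among them Smc4, Smc2, Ncapg, Bub1 and Mad2l1, had a median difference of -0.58, and 1568 other genes in the same range of GC content had -0.19. The 14 members with the highest GC content, among them Plk1, Cdc20, Espl1 and Aurkb, had a median of -0.10, and 4951 other genes in their range had 0.02. Without exercise 1 these 2 sets of members had medians of -0.85 and -0.29, and the other genes in their ranges -0.22 and 0.02. In the antibody comparison the same 2 sets stood at -0.53 and -0.57, and the correlation with GC content was r = -0.18 over the members.

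Single libraries differed in this respect. The slope of the deviation from the gene mean on GC content, per 10 percentage points and over all tested genes, was 0.20 in exercise 2 and 0.11 in exercise 3, but 0.03 in both exercise 1 and exercise 4, and it ranged from -0.10 to 0.10 in the 12 libraries of the other groups. When the GC trend of each library was removed, a step added after seeing the data, the median difference of the members was -0.27. With exercise 1 left out as well, 18 members and 3.65% of all genes were called. The difference in exercise tumours also correlated with protein length over the members, at r = -0.57 and rho = -0.56, while over all tested genes the values were 0.04 and 0.04. Without exercise 1 the members gave -0.55 and -0.54. Members ranged from 134 amino acids in Cenpa to 3177 in Mki67.

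**Figure D4:**
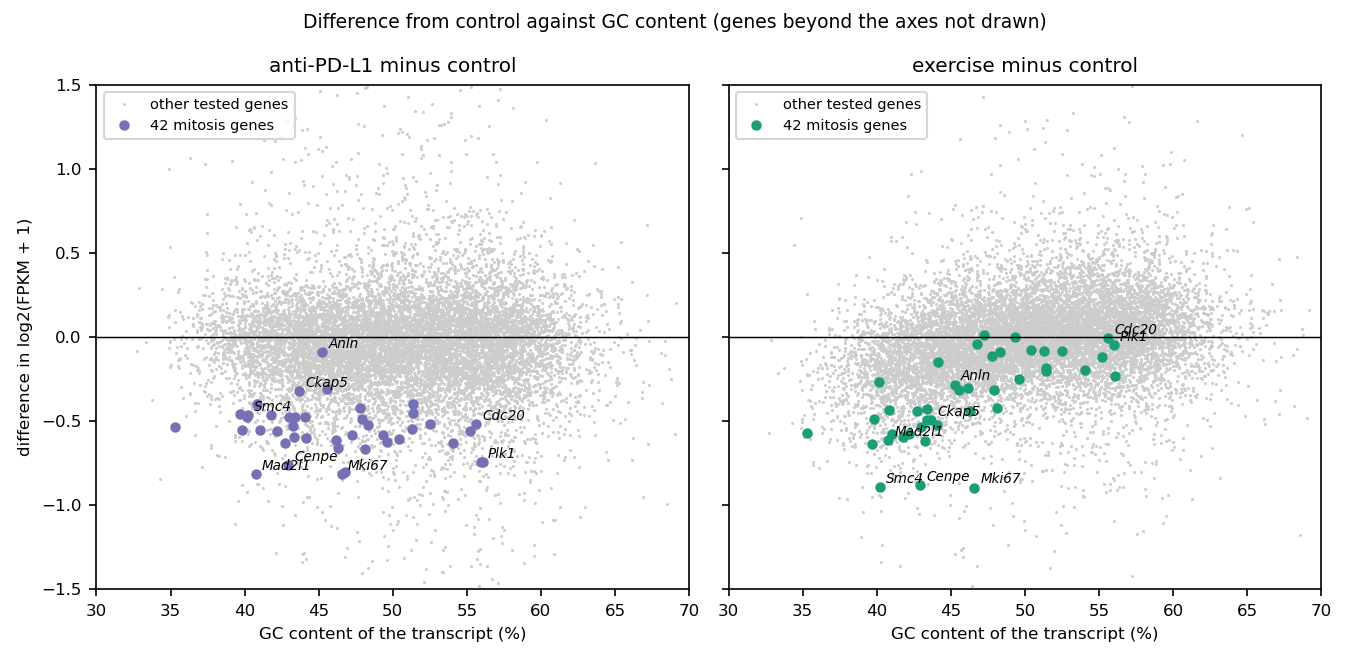
Difference from control in log2(FPKM + 1) against the GC content of the transcript, for the antibody on the left and exercise on the right, with the 42 mitosis genes in colour over the other tested genes in grey. On the right the members with low GC content lie lower than those with high GC content (r = 0.69), and on the left no such slope is seen (r = -0.18).

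In the combination, the means of all 42 mitosis genes lay between the levels of control and of the antibody alone. The share of all tested genes with that order was not computed, and members were partly chosen as low with the antibody, so nothing is read from this count. Against control the median difference was -0.20, with 42 of 42 members below 0, against 58.1% of all genes and a median of -0.03 over all genes. The controls are also those of the comparisons in which members were noted, so these values are not free of that choice. In limma with Benjamini-Hochberg adjustment 0 members and 0% of all genes were called, while 2 members, Bub1b and Arhgap19, and 5.19% of all genes had an unadjusted p under 0.05 with lower values. In 0 members did all combination libraries lie below all controls, a pattern found for 2.37% of all genes. Bub1b measured 20.5, 22.2, 25.7 and 23.7 FPKM in the combination, a log2 difference of -0.35 with a standard error of 0.12 and an adjusted p of 0.572 in limma. Arhgap19 measured 4.29, 3.92, 4.54 and 6.10 FPKM, a difference of -0.41 ± 0.16 (standard error) with an adjusted p of 0.6004. In both genes the combination overlapped with control only through the lowest controls. Ncapd2 and Espl1, next in order of p, stood at -0.36 ± 0.17 and -0.37 ± 0.19, with adjusted p of 0.607 and 0.633 in limma. The 95% interval of Ncapd2 ran from -0.73 to 0.00, so neither no difference nor one as large as with the antibody alone lies outside it. All 7 tested endothelial markers and all 10 macrophage markers were lower in the combination than in control, against 58.1% of all genes. So were 5 of 7 tested fibroblast markers and 0 of 2 tested T and NK cell markers. Of these 4 lists 0 markers were called. An unadjusted p under 0.05 with lower values was found for 6 endothelial, 1 macrophage and 3 fibroblast markers, against 5.19% of all genes. The part of the markers was not tested. The median of the members was -0.13 without control 1, -0.31 without control 4 and -0.06 without controls 1 and 2 together.

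Set beside the antibody alone, all 42 members were higher in the combination, as were 55.2% of all genes, with a median difference of 0.33 against 0.02. This comparison shares its antibody libraries with the first one, in the opposite sign, and a member was noted in it, so its values and counts are a description and no test of the members. Mki67 measured 42.03, 44.6, 49.3 and 53.5 FPKM in the combination, and each of these lay above each antibody library. Cenpe measured 12.7, 14.5, 17.4 and 17.4 FPKM, Plk1 27.7, 29.6, 35.4 and 34.4 FPKM, and Cdk1 23.9, 26.2, 28.4 and 25.1 FPKM. For these 3 genes too the groups did not overlap, but the gaps were small. Top2a, at 80.4, 88.1, 124 and 111 FPKM, and Smc4, at 65.7, 79.7, 89.6 and 84.4 FPKM, overlapped with the antibody libraries. In all, 18 members had each combination library above each antibody library, against 1.4% of all genes, and 0 members and 0% of all genes were called in limma, with 12 members and 2.25% of genes at an unadjusted p under 0.05 with higher values. Combination 1 was the lowest combination library in 34 members, against 22.5% of all tested genes, and without it the median difference was 0.39. Of the 10 macrophage markers, 9 were higher in the combination than with the antibody alone and 1 was lower, against 55.2% of all genes higher. Of these 0 were called, and their part was not tested.

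Against exercise alone the members of the combination stood on both sides of 0. The median difference was 0.18, with 27 members above 0 and 15 below, against 46.1% and 53.9% of all genes. The exercise libraries are those of the comparison in which Smc4, Kif11 and Mki67 were noted, here in the opposite sign. These values and counts therefore carry that choice and are no test of the members. In limma 0 members and 0% of all genes were called, and 6 members with higher and 2 with lower values had an unadjusted p under 0.05, against 6.7% and 6.93% of all genes. The smallest p values belonged to Smc4 at 0.87 ± 0.27 (log2 difference ± standard error), Cenpe at 0.74 ± 0.29, Ckap5 at 0.35 ± 0.14 and Cenpf, a kinetochore protein, at 0.55 ± 0.22, with adjusted p between 0.219 and 0.301 in limma. Of the members below 0, Arhgap19 stood at -0.36 and Ccnb2 at -0.31. Ccnb2 measured 66.8, 44.5, 42.5 and 43.7 FPKM in exercise and 36.2, 40.3, 37.8 and 41.9 in the combination, the only member whose libraries did not overlap with lower values, a pattern found for 3.73% of all genes. The median depended on exercise libraries, at 0.36 without exercise 1, where 12 members and 1.55% of genes were called (7 members and 1.53% with the GC trend removed too), and at 0.07, 0.08 and 0.12 without exercise 2, 3 and 4. It was 0.11 without combination 3. With library weights 1 member and 1.87% of genes were called. All 7 tested fibroblast markers and all 7 tested endothelial markers were lower in the combination than in exercise, against 53.9% of all genes, and 0 were called. An unadjusted p under 0.05 was found for 2 and 1 of these markers, against 6.93% of all genes, and the part of the markers was not tested. Of the 10 macrophage markers, 8 were lower and 2 higher, and 0 were called.

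Whether exercise shifted mitosis genes differently with and without the antibody is the question of the interaction, the exercise effect in antibody-treated tumours minus that in untreated ones. All 42 members were above 0, as were 54.9% of all genes, with a median of 0.65 against 0.03 over all genes. It is made of the combination against the antibody and of exercise against control, and members were noted in both, so its sign and counts carry that choice and are a description. In limma 0 members and 0% of all genes were called after Benjamini-Hochberg adjustment, and 27 members and 7.99% of all genes had an unadjusted p under 0.05 with higher values. The largest values were those of Mki67 at 1.53 ± 0.41 (log2 difference ± standard error), Cenpe at 1.498 ± 0.41, Smc4 at 1.34 ± 0.38 and Cenpf at 1.08 ± 0.31. The smallest was that of Ccnb2 at 0.28. Without exercise 1, 24 members and 1.88% of all genes were called and the median was 0.83. With the GC trend removed as well, 17 members and 1.26% of genes were called. All 10 macrophage markers were above 0 in the interaction too, against 54.9% of all genes. Of these 0 were called, and their part was not tested.

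Other genes of the cell cycle were followed in lists that hold no member. Of 59 other mitosis genes, 57 were lower with the antibody than in control, with a median of -0.42, and 0 were called in limma, where 40 had an unadjusted p under 0.05 with lower values. Over all tested genes 57.7% were lower with the antibody, 0.253% were called and 15.7% had an unadjusted p under 0.05 with lower values. Cdca3, a trigger of mitotic entry, measured 59.1 FPKM in control and 32.9 with the antibody, and Kif2c, a kinesin that takes microtubules apart, 30.02 and 17.9 FPKM. The same list had a median of -0.19 with exercise, -0.16 in the combination against control and 0.26 in the combination against the antibody. In these 3 comparisons 0 were called. With exercise 15 had an unadjusted p under 0.05 with lower values, against 9.93% of all genes. In the combination against control it was 2, against 5.19%, and against the antibody 7 with higher values, against 2.25%. Of 20 DNA replication genes, all 20 were lower with the antibody, with a median of -0.48 and 0 called. Of these, 17 had an unadjusted p under 0.05, against 15.7% of all genes. Tyms, which makes thymidylate, measured 16.015 and 9.99 FPKM, and Fen1, a nuclease that trims Okazaki fragments, 25.2 and 16.4 FPKM. The 17 genes of the anaphase-promoting complex and its regulators had a median of -0.12 and 0 called. An unadjusted p under 0.05 was found for 5, all lower, against 15.7% of all genes.

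Of 18 genes that control the transcription of mitotic genes, 16 were below control with the antibody, against 57.7% of all genes. Their median was -0.27 and 0 were called. An unadjusted p under 0.05 was found for 9, all lower, against 15.7% of all genes. Foxm1, the factor that switches on mitotic genes with MuvB and B-Myb, measured 61.6 FPKM in control and 41.02 with the antibody, a difference of -0.57 with an adjusted p of 0.0714 in limma, and E2f8, a repressor of the E2F family, 37.2 and 20.0 FPKM. In exercise tumours Foxm1 differed by -0.09 and E2f8 by 0.03. Of 8 tested brakes on mitosis, 0 were called with the antibody in limma. Among them 1, Pkmyt1, had an unadjusted p under 0.05 with lower values, against 15.7% of all genes. Pkmyt1, a kinase that blocks CDK1, measured 36.7 and 24.3 FPKM, and Cdkn1a, which encodes the inhibitor p21, 40.3 and 55.1 FPKM in control and antibody tumours. Cdk2, the kinase partner of cyclins E and A, measured 26.0 and 19.0 FPKM. Of 9 cyclins and kinases of G1 and S phase, 6 were lower with the antibody, against 57.7% of all genes, and 0 were called. An unadjusted p under 0.05 was found for 5, all lower, against 15.7% of all genes. Ccne1, which encodes cyclin E1, measured 12.7 FPKM in control and 6.40 with the antibody.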

How the data were processed

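The 16 RNA-seq libraries of tumour tissue were deposited as FPKM values per gene, with 18480 entries in each library. Per the submitters' processing notes, HISAT, Bowtie2 and the build GRCm38.p6 were used; the program that made the FPKM values is not given in the sources used here. The authors' FPKM values sum to between 478672 and 529732 per library. Each of 14694 values of 1008 low genes was divided by the smallest value of its gene, which gave a whole number to within 0.15 for 38.0% of them. That smallest value came from any of the 16 libraries, whose sizes may differ, so this cannot decide whether reads could be recovered. The depth is unknown here and no counting error can be given.

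Values were tested as log2(FPKM + 1) with limma 3.58.1 in R 4.3.3, with a mean-variance trend and robust empirical Bayes, 1 mean for each of the 4 groups and Benjamini-Hochberg adjustment over 11868 genes, those that reached 1 FPKM in 4 or more libraries. A gene was called at an adjusted p under 0.05. A fold change on this scale understates the change of low genes. On simulated data with 200 changed genes among 11868, the fit recovered 88% of genes changed by 1 on the log2 scale for the antibody against control, 97% for exercise against control and 75% for the interaction. Noise was drawn independently, with the same SD for a gene in every library, so 88% and 97% differ only by the random draw. Shifts shared by many genes of a library were not simulated. A change of 1 is larger than the member medians of -0.55 with the antibody and -0.32 with exercise, whose recovery was not measured. GC content and protein length came from GENCODE M21, matched for 97.8% of tested genes.

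The members, the gene lists and the tests were chosen with earlier results of these data known. Per-library values are given for up to 4 members of each role. These had the highest mean FPKM, or the smallest p in the combination against control or against exercise. Cdk1 and members whose per-library pattern in a comparison is described were added, chosen after their values were seen. From each pathway list up to 3 genes with the smallest p in the antibody comparison are named. For the promoters, the rule was the most motif matches, and Mki67 was passed over because its window reaches into an annotated transcript. Same-numbered libraries of different groups did not deviate together: their correlations had a median of -0.07 over 24 pairs, and 1 of the 16 libraries correlated best with one of its own number, so the numbers were not used as pairs. Alternatives covered the pseudocount, the filter, normalization, trend and weights, the samples in the fit, a replicate block, trends with protein length and GC content, and each library left out in turn. The comparisons share libraries, so their values are not independent of each other.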

Additional observations from a re-analysis of the deposited data

Results flagged for a closer look

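In each of the 42 genes and 4 groups, the library farthest from the other 3 was checked against Dixon's 95% critical value for the gap as a share of the range. Of 168 such groups 14 were marked, where chance marks about 5%, and the genes are not independent of each other. In 12 the library was exercise 1, as the highest of its group, at 37.75 FPKM for Cdk1, 116.97 for Ccna2, 52.46 for Ccnb1 and 66.75 for Ccnb2. The checkpoint and anaphase genes among them were Ttk at 13.87, Mad2l1 at 51.24 and Cdc20 at 106.38 FPKM. The spindle and cytokinesis genes were Kif11 at 36.17, Tpx2 at 75.58, Kif23 at 44.1, Prc1 at 72.29 and Anln at 71.93 FPKM. The other two were Aurka, high in anti-PD-L1 library 3 at 24.67 FPKM, and Ckap5, low in combination 1 at 22.1 FPKM. What sets exercise 1 apart was not tested.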

How the results depend on the processing

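The median difference of the members kept its sign in every alternative run, between -0.65 and -0.38 for the antibody against control, -0.51 and -0.23 for exercise against control, -0.31 and -0.06 for the combination against control, 0.29 and 0.39 against the antibody, 0.07 and 0.36 against exercise, and 0.52 and 0.83 for the interaction. Counts of calls moved more. For the antibody against control, leaving out exercise 1 kept each member difference, as with Mad2l1 at -0.82, and changed only the spread used by the fit. What else moved the counts was not tested. For the antibody against control, where 30 genes and 1 member were called, the numbers of genes were 117 with quantile normalization, 77 with libraries centred on their medians, 8 without a filter, 835 with library weights, 82 with the length trend removed, 4 without controls 1 and 2, 130 with the GC trend removed and 335 with that and without exercise 1. The numbers of members were 2 with quantile normalization, 0 without a filter, 2 with a mean of at least 5 FPKM, 28 with library weights, 0 without controls 1 and 2, 2 with the GC trend removed and 26 with that and without exercise 1. For exercise against control, with 0 called, library weights gave 2274 genes and 28 members, and the GC trend removed without exercise 1 gave 433 and 18. For the combination against exercise, with 0 called, 2 genes were called with quantile normalization, 2 with centred libraries, 2 with a mean of at least 5 FPKM, 1 with only the groups compared, 222 with library weights, 2 with the length trend removed, 5 without controls 1 and 2, 3 with the GC trend removed and 182 with that and without exercise 1. Its members called were 1 with library weights and 7 in the last setting. For the interaction, that last setting gave 149 genes and 17 members, and only the groups compared could not be fitted apart from all 4 groups.

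Leaving out 1 library at a time gave between 6 and 768 genes and between 0 and 28 members for the antibody against control, between 0 and 611 genes and between 0 and 24 members for exercise against control, between 0 and 184 genes and between 0 and 12 members for the combination against exercise, and between 0 and 223 genes and between 0 and 24 members for the interaction. With the replicate number as a block, 15 genes and 0 members were called for the antibody against control, and 0 in the other comparisons. As the depth is unknown, how far the number of reads limits these values cannot be given.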
